A study of Sus scrofa with 15 samples.

Results

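Integrins are adhesion receptors, and 7 of their chains were followed across 3 populations of porcine NK cells: ITGB1, which encodes the β1 chain (CD29), and the alpha chains ITGA1 (CD49a), ITGA2 (CD49b), ITGA4 (CD49d), ITGA5 (CD49e), ITGA6 (CD49f) and ITGAV (CD51). The members were chosen by gene symbol as ITGB1 and some of the alpha chains that bind it, and all 7 of the 7 symbols were found among the 29886 genes counted. All 7 also passed the filter on low counts that left 10939 genes for testing.

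The cells came from pigs 6 months old, with no treatment named in the labels. From each of the same 5 animals, CD3-CD172a- cells were sorted by flow cytometry into CD8αhigh NK cells from blood (conventional or cNK cells), CD8αhigh NK cells from the liver, and CD8αdim NK cells from the liver (liver-resident or lrNK cells), which gave 15 libraries, 5 per population. Liver cells were collected from the fluid of a portal vein flush, so cells held in the tissue after the flush were not sampled, although 1 label field of all 15 samples names PBMC as the source. CD8α was a sorting criterion, so the level of CD8A itself is no finding between the populations. Reads were taken near the 3′ end of each transcript, so the count of a gene does not grow with transcript length but depends on how well its 3′ end is annotated.

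An integrin is a heterodimer of an alpha and a beta chain, and the alpha chain largely sets what it binds. With β1, the α1 and α2 chains bind collagen, α6 binds laminin, α5 binds fibronectin, and α4 binds fibronectin and VCAM-1, an adhesion molecule of activated endothelium. The αv chain pairs with several beta chains and binds vitronectin, fibronectin and latent TGF-β. The α4 chain also pairs with β7, which leads lymphocytes to the gut. CD49a and CD49b are used in mice to tell liver-resident from circulating NK cells. A dimer needs both chains to reach the cell surface, and transcript levels do not show how much of either protein is there.

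Between 2003499 and 5680221 reads were counted on genes per library. Levels are given in CPM, the counts of a gene scaled to a common library size with edgeR's TMM factors. All 12 genes of an NK cell marker list were detected, with a summed level of 4569 to 6995 CPM in blood, 5626 to 6654 CPM in liver CD8αhigh cells and 4183 to 11986 CPM in lrNK cells. The lrNK library of pig 3 stood apart from the other 4 of its population in both directions: of the 12 NK cell markers, 5 were lowest in it, 5 were highest in it and 2 lay between. For example, IL2RB was 381 CPM against 2503 to 5900.1 CPM and KLRB1 was 193 CPM against 1089 to 2316 CPM in the other 4, whereas PRF1 was 574 CPM against 209.8 to 305 CPM and CD2 was 634 CPM against 272 to 372 CPM. These examples were picked after their values were seen. The lrNK library of pig 2 also had 5 of the 12 markers lowest, but 0 highest. Values without the lrNK library of pig 3 are given where it moves a member's result. The 6 B cell markers summed to 258 to 707 CPM in lrNK cells, 51.9 to 128 CPM in blood and 17.9 to 59.7 CPM in liver CD8αhigh cells, with CD79A at 0 in every library. Of the T cell markers, CD5 and CD28 were at 0 in every library, and CD3G made up most of a summed level of 109.9 to 593 CPM in lrNK cells, 637 to 1203 CPM in blood and 714 to 1076 CPM in liver CD8αhigh cells. The 8 monocyte or macrophage markers summed to 0 to 25.6 CPM in lrNK cells, 0 to 6.24 CPM in blood and 0 to 2.93 CPM in liver CD8αhigh cells. CD163, CSF1R, MARCO and CD5L were at 0 in every library. LYZ, the only 1 tested, was higher in lrNK than in liver CD8αhigh cells at an edgeR adjusted p of 0.0272, or 0.0512 with the pig as a block. The part of these other cells in the results was not tested. In bulk samples such as these, fewer cells that express a gene and less RNA per cell cannot be told apart.

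In lrNK cells the transcripts of ITGA1, ITGA4 and ITGA5 were lower than in both CD8αhigh populations, while no member was called higher. A gene was called when its p from the quasi-likelihood test of edgeR, adjusted by Benjamini-Hochberg over all genes tested, was under 0.05. Against blood, 3 of the 7 members were called lower and 0 higher, beside 9.60% of all genes tested called lower, 8.62% called higher and 18.2% called in either direction. Against liver CD8αhigh cells, the same 3 members were called lower and 0 higher, beside 7.68% lower, 6.96% higher and 14.6% in either direction among all genes. Between liver CD8αhigh and blood cells, 0 of 7 members were called, beside 0.0640% of all genes. DESeq2 also called 3 lower and 0 higher in both lrNK comparisons and 0 in the third. Against blood, DESeq2 called 2388 of all genes in either direction, where edgeR called 1993. At an unadjusted p under 0.05, edgeR gave 4 lower and 0 higher against blood, 4 lower and 1 higher against liver CD8αhigh cells, and 0 between the CD8αhigh populations. The share of all genes at an unadjusted p was not counted, so these 3 counts have no background. The median log2 fold change of the 7 members was -0.98 in lrNK cells against blood and -0.83 against liver CD8αhigh cells, where the median over all genes tested was 0.01 and 0.02. The 2 comparisons with lrNK cells share the same lrNK libraries, so they are not independent.

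**Figure D1:**
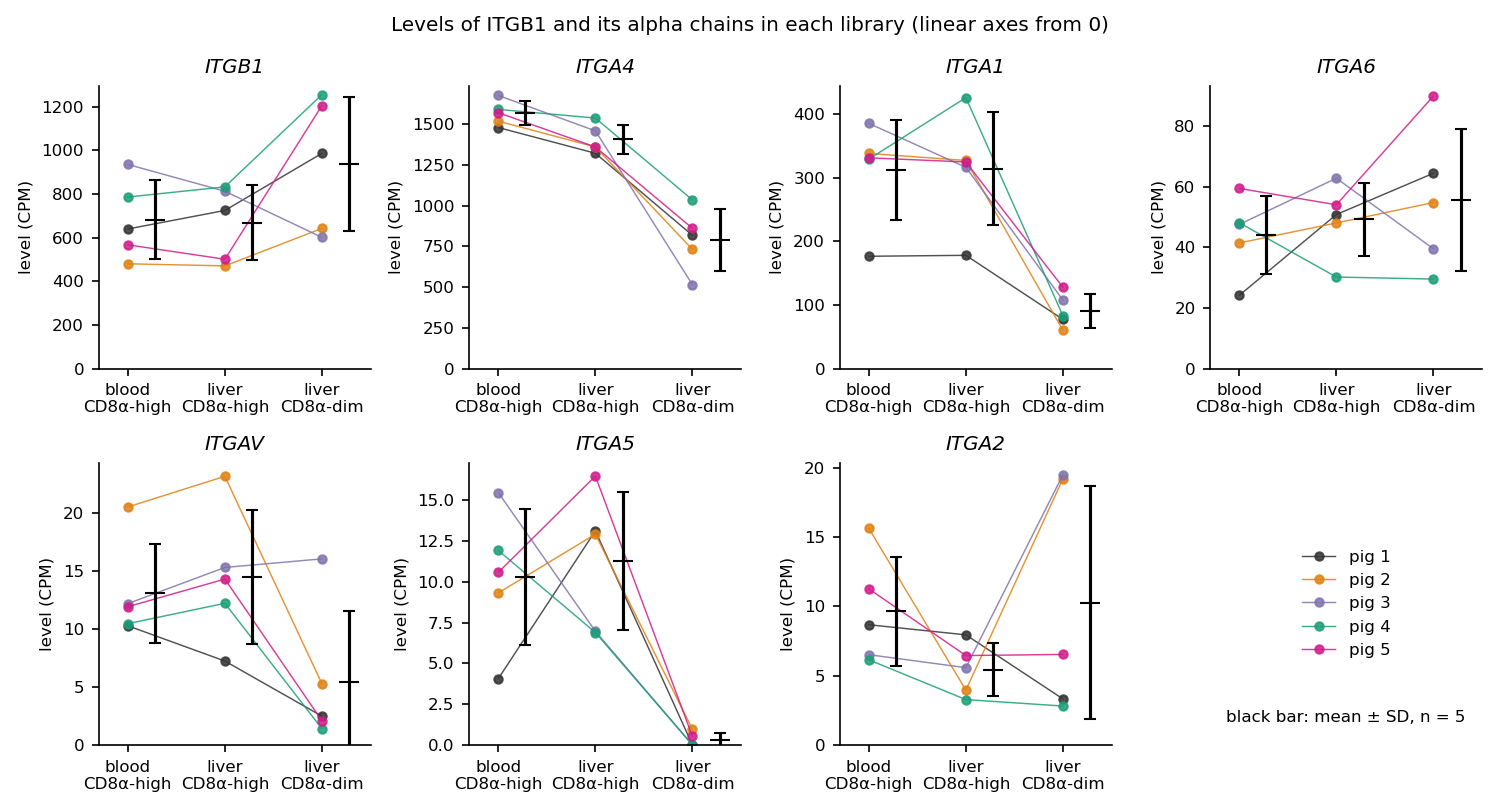
Level of each member (y axis, CPM, linear from 0) in the 5 libraries of each population (x axis), with coloured lines joining the libraries of a pig and black bars for mean ± SD (n = 5), cut off at 0 for ITGAV and ITGA5. All 5 lrNK libraries lie below every CD8αhigh library for ITGA4, ITGA1 and ITGA5, while ITGB1, ITGA6 and ITGA2 overlap and ITGAV overlaps through pig 3.

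ITGB1 encodes the beta chain shared by the other 6 members (chromosome 10, positions 56078393 to 56130608 in Sscrofa11.1). Its level was 639.5, 480.0, 935, 786 and 567 CPM in the blood cells of pigs 1 to 5, and 724, 470.4, 812, 833 and 501 CPM in their liver CD8αhigh cells. In lrNK cells it was 986, 642, 601, 1256 and 1205 CPM. The level was thus higher in lrNK cells than in both CD8αhigh populations in 4 of 5 pigs, pig 3 being the exception, and the populations overlapped. The means were 682 ± 181 CPM in blood, 668 ± 172 CPM in liver CD8αhigh cells and 938 ± 306 CPM in lrNK cells (SD, n = 5). The log2 fold change of 0.46 (SE 0.23, 95% CI -0.02 to 0.94) between lrNK and blood cells was not past the threshold, with an adjusted p of 0.192 in edgeR after Benjamini-Hochberg adjustment. Against liver CD8αhigh cells it was 0.49 (SE 0.23, 95% CI 0.01 to 0.97, edgeR adjusted p = 0.191). Without all libraries of pig 3, the difference from blood was 0.73 and passed the threshold (edgeR adjusted p = 0.0317), and without the lrNK library of that pig alone it was 0.60 (edgeR adjusted p = 0.0540). Against liver CD8αhigh cells it was 0.69 without pig 3 (edgeR adjusted p = 0.0503) and 0.62 without that library (edgeR adjusted p = 0.0595), neither past the threshold.

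ITGA4, the alpha chain with the most counts in every library, encodes the receptor chain for VCAM-1 and fibronectin (chromosome 15, positions 86942054 to 87028428). Blood cells of pigs 1 to 5 had 1479, 1518, 1676, 1590.4 and 1570.1 CPM, and their liver CD8αhigh cells had 1321, 1359.8, 1459, 1537 and 1359.7 CPM. Their lrNK cells had 817, 731, 514, 1035 and 860.3 CPM. Every lrNK library was lower than every CD8αhigh library. The mean fell from 1567 ± 75.1 CPM in blood to 792 ± 190.4 CPM in lrNK cells, a level 1.98-fold lower, and the log2 fold change was -0.98 (SE 0.15, edgeR adjusted p = 7.78e-05). Against liver CD8αhigh cells, with 1407 ± 88.7 CPM, the level was 1.78-fold lower and the log2 fold change was -0.83 (SE 0.15, edgeR adjusted p = 5.39e-04). The coefficient of variation between pigs was 4.79% in blood and 6.30% in liver CD8αhigh cells, against 24.0% in lrNK cells, where the library of pig 3 was the lowest. Without that library the log2 fold change against blood was -0.85 and its adjusted p in edgeR was 3.05e-05.

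ITGA1 encodes the collagen-binding chain CD49a (chromosome 16, positions 32130265 to 32309917). Its level was 177, 339, 386, 329.6 and 332 CPM in blood cells of pigs 1 to 5 and 178, 328, 317, 426 and 325 CPM in liver CD8αhigh cells. In lrNK cells it was 77.2, 60.0, 108, 82.8 and 128 CPM. The highest lrNK library stayed below the lowest CD8αhigh library, that of pig 1 in blood, and the lrNK level was lower in 5 of 5 pigs. The means were 312 ± 79.3 CPM in blood, 315 ± 88.6 CPM in liver CD8αhigh cells and 91.1 ± 26.7 CPM in lrNK cells. ITGA1 was therefore 3.43-fold lower in lrNK than in blood cells (log2 fold change -1.77, SE 0.24, edgeR adjusted p = 1.76e-05) and 3.46-fold lower than in liver CD8αhigh cells (log2 fold change -1.79, SE 0.24, edgeR adjusted p = 2.13e-05). The transcript was nevertheless detected in all 5 lrNK libraries, with 125 to 489 counts each.

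The span of ITGA1 shares 15850 bases with PELO, which encodes a factor that rescues stalled ribosomes (chromosome 16, positions 32130254 to 32146114), and 10408 bases with the long non-coding RNA LOC106506482, which had 0 to 20 counts per library and was not tested. Neither the counting tool nor its strand setting is given in the sources used here, and the gene positions carry no strand. Reads of ITGA1 and PELO from the shared bases may therefore not have been told apart. PELO had 89.2, 70.7, 109.9, 33.6 and 99.6 CPM in blood, 113, 115, 102, 121 and 121 CPM in liver CD8αhigh cells, and 44.9, 38.4, 42.4, 62.9 and 49.1 CPM in lrNK cells. Thus PELO was also lower in lrNK cells, without overlap against liver CD8αhigh cells (log2 fold change -1.26, SE 0.24, edgeR adjusted p = 8.15e-04) and with overlap against blood (log2 fold change -0.76, SE 0.24, edgeR adjusted p = 0.0312, and 0.0556 with the pig as a block). The 2 genes did not keep a fixed ratio: there were 0.102 to 0.505 PELO counts per ITGA1 count in blood, 0.283 to 0.634 in liver CD8αhigh cells and 0.384 to 0.759 in lrNK cells. When the counts of both genes were added, the log2 fold change of the sum was -1.50 against blood and -1.63 against liver CD8αhigh cells, and both were called.

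**Figure D2:**
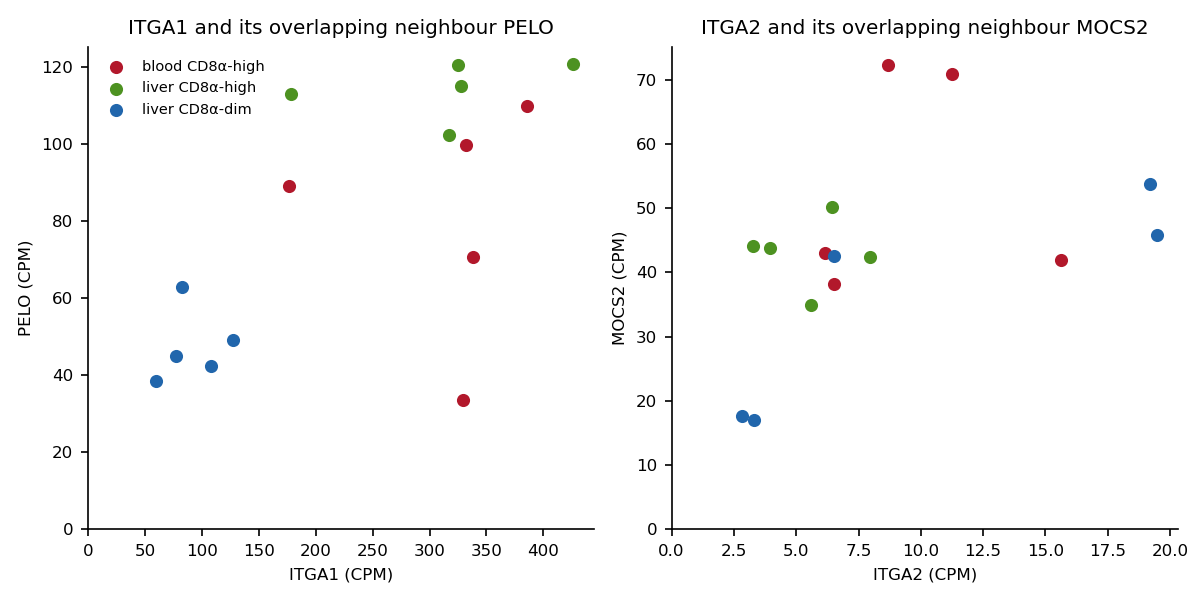
Level of PELO against ITGA1 (left) and of MOCS2 against ITGA2 (right), in CPM on linear axes from 0, with 1 point per library coloured by population. The lrNK points of ITGA1 lie at 60.0 to 128 CPM with PELO at 38.4 to 62.9 CPM, while ITGA2 shows no separation of the populations.

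ITGA5 encodes CD49e, the alpha chain of the main fibronectin receptor (chromosome 5, positions 19587361 to 19610580). It was a low-count gene, with 15, 34, 57, 33 and 31 counts in blood cells of pigs 1 to 5, and 38, 49, 25, 40 and 69 counts in liver CD8αhigh cells. In lrNK cells 0, 2, 0, 0 and 2 counts were found. It was thus the member with the lowest lrNK level, and no lrNK library reached the lowest library of the other populations. Scaled to library size, the summed counts of 170 in blood against 4 in lrNK cells gave a 35.4-fold ratio (exact 95% interval 13.6 to 131), and the 221 counts in liver CD8αhigh cells gave a 38.0-fold ratio (14.6 to 141). These intervals cover counting error only. The fitted log2 fold changes, which depend on edgeR's prior count, were -4.98 against blood (SE 0.78, edgeR adjusted p = 8.28e-05) and -5.12 against liver CD8αhigh cells (SE 0.78, edgeR adjusted p = 7.20e-05). Leaving out 1 pig or library gave -5.74 to -4.56 against blood and -5.84 to -4.76 against liver CD8αhigh cells.

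ITGAV encodes the αv chain (chromosome 15, positions 91604666 to 91711843), the only other member whose fitted change was below 0 in both lrNK comparisons. Blood cells of pigs 1 to 5 had 10.3, 20.6, 12.2, 10.5 and 11.9 CPM and liver CD8αhigh cells had 7.25, 23.2, 15.3, 12.2 and 14.3 CPM. In lrNK cells the level was 2.49, 5.28, 16.1, 1.40 and 2.09 CPM, from 5 to 33 counts. Without pig 3 the lrNK libraries lay below every CD8αhigh library, whereas the lrNK library of pig 3 lay within their range. With all libraries the log2 fold change was -1.31 against blood (SE 0.56, edgeR adjusted p = 0.116) and -1.45 against liver CD8αhigh cells (SE 0.56, edgeR adjusted p = 0.0936). With the pig as a block the values were -1.63 (edgeR adjusted p = 0.0352) and -1.73 (edgeR adjusted p = 0.0296). Without the lrNK library of pig 3, and without the block, they were -2.24 (edgeR adjusted p = 0.00189) and -2.40 (edgeR adjusted p = 0.00122). Either change alone, the block or leaving out that library, thus gave the call. ITGAV shares 885 bases with a transcribed pseudogene, LOC110256917, whose mean was 4.87 CPM in blood against 0.768 CPM for lrNK cells and which was not called (edgeR adjusted p = 0.0756).

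ITGA6 encodes the laminin-binding chain CD49f (chromosome 15, positions 78504108 to 78591779). Its level was 24.1, 41.4, 47.5, 48.1 and 59.4 CPM in blood, 50.8, 48.0, 62.7, 30.2 and 54.0 CPM in liver CD8αhigh cells, and 64.4, 54.7, 39.5, 29.5 and 89.8 CPM in lrNK cells. The populations overlapped over most of their range, and ITGA6 was higher in lrNK cells in 3 of 5 pigs in either comparison. The log2 fold change was 0.34 against blood (95% CI -0.27 to 0.94, edgeR adjusted p = 0.488) and 0.18 against liver CD8αhigh cells (95% CI -0.42 to 0.78, edgeR adjusted p = 0.774). These intervals leave room for a change in either direction.

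ITGA2 encodes the collagen-binding chain CD49b (chromosome 16, positions 32336240 to 32440311, 26322 bases beyond ITGA1). Levels were 8.67, 15.6, 6.51, 6.14 and 11.3 CPM in blood and 7.94, 3.96, 5.58, 3.27 and 6.45 CPM in liver CD8αhigh cells. In lrNK cells they were 3.32, 19.2, 19.5, 2.81 and 6.53 CPM, so the lrNK libraries of pigs 2 and 3 were the 2 highest of all 15 and those of pigs 1 and 4 were lower than every blood library. With 8 to 57 counts per library, no difference was detectable: the log2 fold change was 0.07 against blood (95% CI -1.09 to 1.23, edgeR adjusted p = 0.957) and 0.90 against liver CD8αhigh cells (95% CI -0.28 to 2.08, edgeR adjusted p = 0.356). Without the lrNK library of pig 3 the values were -0.28 (edgeR adjusted p = 0.792) and 0.54 (edgeR adjusted p = 0.625), and without that of pig 2 the value against blood was -0.28 (edgeR adjusted p = 0.818). The sign of the difference from blood also turned without the blood library of pig 3 or of pig 4, without all libraries of pig 2 or of pig 3 (-0.41 for pig 3) and with the pig as a block. ITGA2 shares 12529 bases with MOCS2, which encodes an enzyme of molybdenum cofactor synthesis (positions 32427783 to 32462362) and had 2.35 to 13.5 counts for each ITGA2 count. Reads of ITGA2 and MOCS2 from the shared bases may likewise not have been told apart. MOCS2 was not called in lrNK cells against blood (35.4 ± 16.9 against 53.3 ± 16.9 CPM, edgeR adjusted p = 0.197). With the counts of both genes added, the log2 fold change was -0.47 against blood (edgeR adjusted p = 0.342) and -0.10 against liver CD8αhigh cells (edgeR adjusted p = 0.899). The platelet markers, beside which ITGA2 is of interest because platelets carry CD49b, summed to 82.0 to 114 CPM in blood, 90.2 to 123 CPM in liver CD8αhigh cells and 81.4 to 178 CPM in lrNK cells. GP9 made up most of these sums. It was the whole of the highest, in the lrNK library of pig 3, where PPBP, ITGA2B, GP1BA, TUBB1 and GP6 had 0 counts. GP9 was not called in lrNK cells against blood (118 ± 40.6 against 90.5 ± 18.2 CPM, edgeR adjusted p = 0.247).

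Liver and blood CD8αhigh NK cells were not told apart by any member. The mean of ITGA1 was 315 CPM in the liver against 312 CPM in blood, a log2 fold change of 0.01 (95% CI -0.48 to 0.50). For ITGB1 it was -0.03 (95% CI -0.51 to 0.45), for ITGA6 0.16 (95% CI -0.45 to 0.76), for ITGAV 0.14 (95% CI -0.95 to 1.24) and for ITGA5 0.13 (95% CI -1.04 to 1.31). ITGA4 and ITGA2 were lower in liver CD8αhigh cells in 5 of 5 pigs, by a log2 fold change of -0.15 (95% CI -0.47 to 0.16) for ITGA4 and of -0.83 (95% CI -2.003 to 0.34) for ITGA2, which was -0.49 without pig 2 and -0.38 with the counts of MOCS2 added. All 7 adjusted p-values in edgeR were 1.00 after rounding. For ITGA1, ITGA4 and ITGB1 the intervals stay between -0.51 and 0.50 on the log2 scale, whereas those of the low-count genes ITGA2, ITGA5 and ITGAV are wider.

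**Figure D3:**
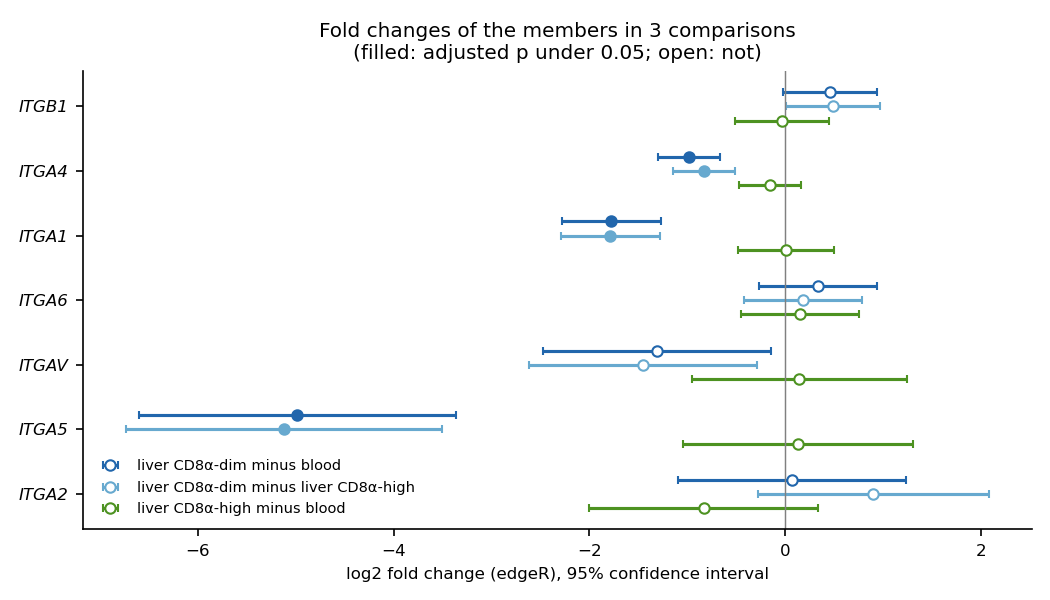
Log2 fold change of each member (x axis) in the 3 comparisons, as edgeR estimates with 95% confidence intervals, filled where the adjusted p was under 0.05. In both lrNK comparisons ITGA4, ITGA1 and ITGA5 lie at -0.83 or below and are filled, whereas all 7 points of liver CD8αhigh against blood are open and lie near 0 or have wide intervals.

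The order of the levels differed between the populations, read on the CPM scale of 3′ counts. In blood and in liver CD8αhigh cells, ITGA4 was followed by ITGB1, ITGA1 and ITGA6 with no overlap between neighbours, and then by ITGAV, ITGA5 and ITGA2, whose libraries overlapped. In lrNK cells ITGB1 had the highest mean but overlapped with ITGA4. ITGA1 and ITGA6, which were 312 and 44.1 CPM in blood, were 91.1 and 55.6 CPM in lrNK cells and overlapped. ITGA2 and ITGAV followed, overlapping each other, and ITGA5 was lowest in all 5 lrNK libraries.

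The alpha chains together had 1956 ± 160.1 CPM in blood, 1802 ± 159 CPM in liver CD8αhigh cells and 954 ± 180.0 CPM in lrNK cells. Set against ITGB1, this was 2.66, 4.05, 2.29, 2.54 and 3.52 alpha chain counts per ITGB1 count in blood cells of pigs 1 to 5, and 2.18, 3.77, 2.30, 2.42 and 3.55 in liver CD8αhigh cells. In lrNK cells it was 0.978, 1.36, 1.16, 0.917 and 0.902. Every CD8αhigh library thus had over 2 alpha chain counts per ITGB1 count, and every lrNK library had fewer, with pig 3 within the range of the other 4. These ratios describe transcript counts of chains that were in part chosen for their partner, and they were not tested. ITGA4 kept the largest share of the alpha counts in every library, with a mean of 80.3% ± 3.71 in blood, 78.3% ± 3.14 in liver CD8αhigh cells and 82.3% ± 6.09 in lrNK cells. The mean share of ITGA1 was 15.8% ± 3.08, 17.2% ± 3.65 and 9.86% ± 3.68, and that of ITGA6 was 2.23% ± 0.561, 2.76% ± 0.750 and 5.89% ± 2.09 in the same order.

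**Figure D4:**
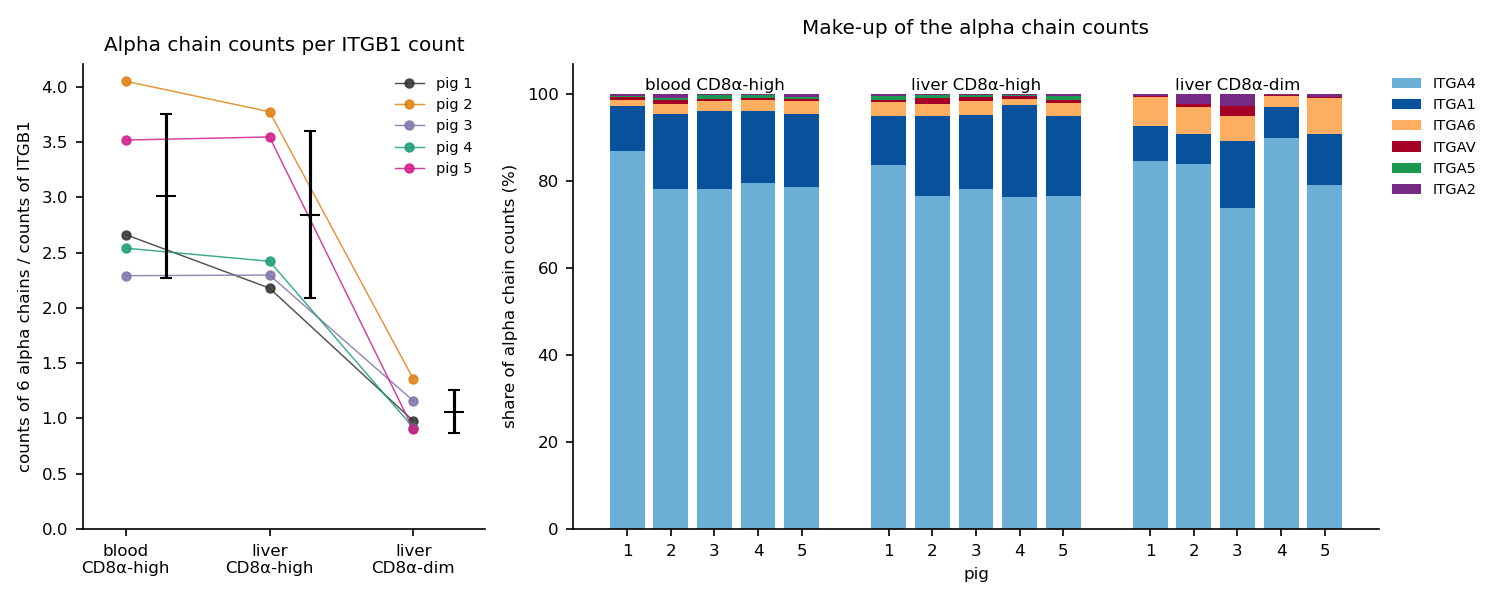
Left, counts of the 6 alpha chains per ITGB1 count in each library by population, with lines joining the libraries of a pig and black bars for mean ± SD (n = 5). Right, share of each alpha chain in the alpha chain counts of each library, in percent, where ITGA4 takes the most in all 15 libraries and the mean ITGA1 share is 9.86% in lrNK cells against 15.8% in blood.

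For each member, the 3 named genes with the most similar pattern over the 15 libraries were found by the root mean square difference of log2 CPM after each gene was centred on its own mean. For ITGA1, whose own log2 values spread by 0.93 about their mean, these were SIAH1 (0.29), a ubiquitin ligase, S100A10 (0.36), a partner of annexin A2, and SYTL2 (0.37), a synaptotagmin-like protein of granule docking. ITGA4, with a spread of 0.49, was closest to C7H6orf106 (0.18), RHOF (0.19) and BIN2 (0.19). ITGA5, with a spread of 1.84, was closest to PTPN4 (0.56), a tyrosine phosphatase, ZEB2 (0.61), a transcription factor of NK cell maturation, and C8H4orf32 (0.61). ITGAV, with a spread of 1.06, was closest to ICOSLG (0.38), GZMM (0.46) and DENND3 (0.51), and ITGB1, with a spread of 0.44, to CHRNA2 (0.24), GLIPR1 (0.27) and VIPAS39 (0.28). ITGA6 and ITGA2 had a spread of 0.47 and 0.80, and their nearest genes were TOR1B (0.29), TRIM23 (0.30) and KIAA0040 (0.31) for ITGA6, and GCC1 (0.48), ATF7 (0.49) and TRAF2 (0.49) for ITGA2. The points share their libraries and depth, so this is a description of likeness only.

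Few other chains that could pair with the members were detected among these 3′ counts. Of 6 further alpha partners of β1, ITGA3, ITGA7 and ITGA11 were at 0 in all 15 libraries, ITGA8 had 1 count and ITGA9 3 counts in a single library each, and ITGA10, a collagen-binding chain, had 2 to 34 counts and was not called. Of the other beta chains of α4, α6 and αv, ITGB4 and ITGB8 were at 0 in all 15 libraries, and ITGB3 and ITGB6 had at most 4 counts in any library. ITGB5, a partner of αv, stood at 3.79 ± 3.01 CPM in blood against 11.0 ± 9.36 CPM for lrNK cells and was not called (log2 fold change 1.54, SE 0.95, edgeR adjusted p = 0.305). ITGB7, the other partner of α4, had a higher level: it was 333 ± 46.1 CPM in blood, 258 ± 43.0 CPM in liver CD8αhigh cells, and 34.5, 97.0, 147, 45.8 and 29.0 CPM in lrNK cells of pigs 1 to 5. It was lower in 5 of 5 pigs, with a log2 fold change of -2.25 against blood (SE 0.33, edgeR adjusted p = 3.50e-05) and of -1.88 against liver CD8αhigh cells (SE 0.32, edgeR adjusted p = 2.84e-04). Thus ITGA4 and ITGB7 both fell in lrNK cells, while the change of ITGB1 was not called.

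The integrins of leukocytes that use β2 or β7 served as the nearest family to set beside the members. All 7 of 7 were tested, and their median log2 fold change in lrNK cells against blood was -0.79. There 4 were called lower and 0 higher (0 higher also at an unadjusted p under 0.05 and by DESeq2), beside 9.60% and 8.62% of all genes. Beside ITGB7 these were ITGAM, the alpha chain of complement receptor Mac-1 (-1.03, edgeR adjusted p = 5.80e-04), ITGB2, the β2 chain (-0.86, edgeR adjusted p = 0.00108), and ITGAL, the alpha chain of LFA-1 (-0.79, edgeR adjusted p = 0.00925). ITGAE, the CD103 chain of tissue-resident lymphocytes, had 13.5 ± 9.60 CPM in lrNK cells and 9.75 ± 4.93 CPM in blood and was not called. Against liver CD8αhigh cells the same 4 were called lower and ITGAD, another partner of β2, was called higher at 8.18 ± 6.62 CPM against 0.564 ± 0.388 CPM (log2 fold change 3.80, SE 0.88, edgeR adjusted p = 0.00459). Among all genes, 7.68% were called lower and 6.96% higher in that comparison. The counts of this list stand beside 3 of 7 members called lower in each comparison, and no test of the difference was made.

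Proteins that switch integrins on from inside the cell were followed in a list of activators, of which 11 were tested. In lrNK cells against blood 4 were called lower and 1 higher, beside 9.60% and 8.62% of all genes, with a median log2 fold change of 0.25. TLN2, a talin that binds beta chain tails, fell from 16.1 ± 4.34 to 0.582 ± 0.870 CPM (-4.98, SE 0.83, edgeR adjusted p = 1.70e-04). RASGRP2, an exchange factor for Rap1 (log2 fold change -2.27, edgeR adjusted p = 1.92e-04), RAP1B itself (-1.53, edgeR adjusted p = 6.58e-08) and RAPGEF1, a further Rap1 exchange factor (-1.48, edgeR adjusted p = 5.44e-06), also fell. RAP1A, the other Rap1 gene, which is named after its values were seen, rose from 346 ± 62.9 to 637 ± 194 CPM (0.88, SE 0.20, edgeR adjusted p = 0.00341). The 2 Rap1 genes therefore moved in opposite directions. Of 8 tested inhibitors of integrin activation, 2 were called lower, RAP1GAP2 (-2.85, edgeR adjusted p = 4.04e-07) and FLNA, the actin crosslinker filamin A (-2.46, edgeR adjusted p = 3.74e-06), and 2 higher, SIPA1, a GTPase-activating protein for Rap1 (1.59, edgeR adjusted p = 1.64e-05), and DOK1 (1.38, edgeR adjusted p = 3.18e-04).

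Of 13 tested genes of the integrin-linked kinase complex and the adaptors that tie integrins to actin, 3 were called lower and 1 higher, with a median log2 fold change of -0.58, and 5 were called lower with the pig as a block. For this list and those that follow, the shares over all genes without the block were 9.60% lower and 8.62% higher. VCL, which encodes vinculin, fell from 557 ± 76.3 CPM in blood to 47.3 ± 21.9 CPM in lrNK cells (-3.56, SE 0.26, edgeR adjusted p = 4.27e-09). ZYX, a focal adhesion protein (-1.38, edgeR adjusted p = 3.76e-06), and LIMS1, a partner of the integrin-linked kinase (-1.04, edgeR adjusted p = 2.54e-04), fell, and PXN, the scaffold paxillin, rose (0.72, edgeR adjusted p = 0.0215). Of 11 signalling kinases and scaffolds, FYN, a Src family kinase, was called higher (0.94, edgeR adjusted p = 3.70e-04) and ELMO1 lower (-1.37, edgeR adjusted p = 0.00152), and with the pig as a block 2 were called higher. Of 8 genes of integrin recycling, RAB4A, a GTPase of fast endosomal recycling, was called higher, at 228 ± 80.3 against 65.7 ± 10.4 CPM (1.80, SE 0.22, edgeR adjusted p = 4.43e-06), and 0 lower (1 at an unadjusted p under 0.05, 0 by DESeq2).

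Over the 63 tested genes of these lists and the ligands, members left out, 15 were called lower and 7 higher in lrNK cells against blood. Among all genes, 9.60% were lower and 8.62% higher. Against liver CD8αhigh cells 14 were called lower and 8 higher, beside 7.68% and 6.96% of all genes. Between liver CD8αhigh and blood cells edgeR called 0, beside 0.0640% of all genes. There 3 had an unadjusted p under 0.05 and DESeq2 called 0. No list was tested against these shares. The calls against liver CD8αhigh cells named the same genes as against blood, except that SKAP1, an adaptor of integrin activation likewise named after its values were seen (0.62, edgeR adjusted p = 0.0283), and ITGAD were added and the ligands were not called. With the pig as a block, the ligand VCAM1 was also called higher against liver CD8αhigh cells (edgeR adjusted p = 0.00191, and 0.0876 without the block). The adaptor RSU1, named after its values were seen, was also called lower with the block (edgeR adjusted p = 0.0325, and 0.131 without it). Genes on these lists act downstream of other receptors as well, and their lists were chosen with earlier results of these data known.

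**Figure D5:**
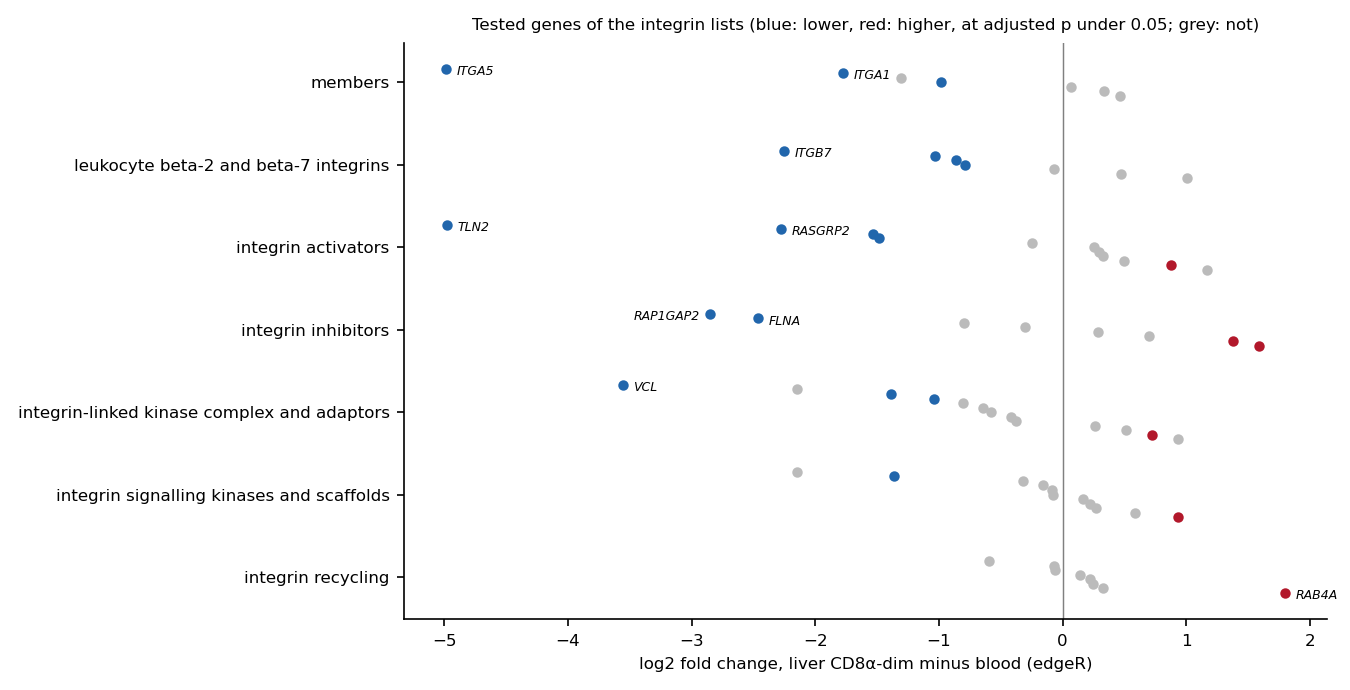
Log2 fold change between lrNK and blood cells (x axis) of each tested gene in 7 lists (rows), with blue for genes called lower, red for genes called higher and grey for genes not called. Calls in both directions appear among the activators, inhibitors, adaptors and kinases, whereas the called members and leukocyte integrins all lie below 0.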

How the data were processed

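RNA of sorted porcine NK cells (QuantSeq 3′ FWD kit) was sequenced. The authors trimmed the reads with QuasR, aligned them to Sscrofa11.1 with HISAT2 and deposited whole-number counts per gene, without normalization. The counting tool, strand setting and treatment of multiple alignments are not given in the sources used here. All 15 columns matched a sample.

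The test was edgeR 4.0.16 under R 4.3.3 (TMM, filterByExpr by population, quasi-likelihood test, Benjamini-Hochberg adjustment over 10939 genes) in 1 fit of all 15 libraries. The study's tool, DESeq2 (1.42.0), other filters and scalings, robust dispersion, fits of 2 populations, the pig as a block, and leaving out each pig or library were alternatives. SE is the log2 fold change divided by the square root of F. Gene positions and overlaps come from a RefSeq table of the same assembly, without strand, and no sequence was available to print. Figures used Python 3.11.15 and matplotlib 3.10.9.

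The members and gene lists were chosen with earlier results of these data known. Named genes are the members, genes overlapping them, the 3 nearest in pattern, at most 4 called genes per list with the largest change, the leukocyte integrins, and markers. Genes named outside this rule, after their values were seen, are RAP1A, TLN1, SKAP1, RSU1 and the further alpha and beta chains that could pair with the members. The sample labels and the paper pair the libraries by pig: deviations from the population mean had a mean correlation of 0.107 (-0.0191 to 0.193, 15 pairs) within pigs and -0.0265 (60 pairs) between pigs. No 2 libraries of a population looked like the same library (chi-square per degree of freedom 9.41 to 46.7, 30 pairs).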

Additional observations from a re-analysis of the deposited data

Results flagged for a closer look

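In 3 of 27 groups of 5 libraries, those of the 7 members and the neighbours PELO and MOCS2 in each population, a single library lay far from the other 4 by Dixon's criterion, where chance marks about 5% of groups. ITGA1 in the blood library of pig 1 was 177 CPM, against 329.6 to 386 CPM in the other blood libraries. The liver CD8αhigh library of the same pig was also the lowest of its population for ITGA1, at 178 CPM. ITGAV in the blood library of pig 2 was 20.6 CPM, against 10.3 to 12.2 CPM, and ITGAV in the lrNK library of pig 3 was 16.1 CPM, against 1.40 to 5.28 CPM. In the lrNK library of pig 3, 5 of the 12 NK cell markers were the lowest and 5 the highest of its population.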

How the results depend on the processing

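ITGA1, ITGA4 and ITGA5 kept their direction and their call in both lrNK comparisons in 176 of 176 alternative values (highest adjusted p 0.00782). With the replicate block, pairing the libraries by pig, ITGAV passed the threshold against blood (-1.63) and against liver CD8αhigh cells (-1.73), so 4 members were called in each comparison, ITGA2 against blood turned to -0.13, and no other member's call changed. Against blood, the block gave 2120 called among all genes, beside 1993 without it. With MOCS2 counts added, ITGA2 turned to -0.47 against blood and -0.10 against liver CD8αhigh cells. ITGB1 between the CD8αhigh populations turned to 0.0069 with library totals alone. The number of genes called between those populations, 7, was 18 without a filter, 24 by DESeq2, 4 with robust dispersion and 16 when only those populations were fitted. The cause was not tested.

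Leaving out 1 pig or library gave 3 to 5 called members against blood, the 5 without pig 3, beside 1472 to 2301 of all genes (1951 without pig 3). The ranges against blood were -0.41 to 0.33 for ITGA2, -2.28 to -1.04 for ITGAV, 0.31 to 0.73 for ITGB1 and 0.10 to 0.54 for ITGA6. Against liver CD8αhigh cells the ranges were -0.069 to 0.39 for ITGA6, 0.45 to 1.29 for ITGA2, 0.29 to 0.69 for ITGB1 and -2.40 to -1.20 for ITGAV, with 1051 (without pig 5) to 1764 genes called. Between the CD8αhigh populations 0 (without pig 2) to 12 (without the lrNK library of pig 3) genes were called, with ranges of -0.13 to 0.16 for ITGA1, -1.03 to -0.49 for ITGA2, -0.12 to 0.46 for ITGA5, -0.0021 to 0.32 for ITGA6, -0.090 to 0.37 for ITGAV and -0.13 to 0.11 for ITGB1. Among these fits, ITGAV was called in both lrNK comparisons without pig 3 or its lrNK library and in no other, and ITGB1 was called against blood without pig 3 and in no other.

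Counts of 0 to 88 per library limit ITGA2, ITGA5 and ITGAV. Other scalings moved the median over all genes by less than 0.1 on the log2 scale.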

Other observations

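Of 25 genes for ligands of these integrins, 24 were among the genes counted, and 3 passed the filter on low counts and were tested. VCAM1, the ligand of α4β1, had 0 counts in all 5 blood libraries and 249, 139, 0, 93 and 48 counts in the lrNK libraries of pigs 1 to 5. It was called higher in lrNK cells (edgeR adjusted p = 0.00428), at least 211.6-fold against a floor of 3 counts over the blood group, and was at 0 in the lrNK library of pig 3. Without the lrNK library of pig 1, left out after the data were seen, the bound was 135.4-fold, and both bounds cover counting error only. Liver CD8αhigh cells had 53 counts in pig 1 and 0 in the other 4 pigs, and the difference of lrNK cells from them was called with the pig as a block (edgeR adjusted p = 0.00191) but not without it (0.0876). The endothelial markers CDH5, STAB2 and LYVE1 were at 0 in every library, and the 8 endothelial markers summed to 3.09 to 18.5 CPM in lrNK cells and 1.92 to 14.1 CPM in blood. The B cell markers summed to 462, 664, 258, 707 and 267 CPM in the lrNK libraries of pigs 1 to 5. Of the 5 that were tested, 4 were called higher in lrNK cells than in blood. BLK was not (28.7 ± 10.4 against 29.1 ± 11.8 CPM, edgeR adjusted p = 0.969). The part of B cells in the VCAM1 counts was not tested. TGFB1, whose latent protein αv integrins bind, was 104 ± 17.8 CPM in lrNK cells and 156 ± 24.0 CPM in blood and was called lower (log2 fold change -0.58, SE 0.17, edgeR adjusted p = 0.0215).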
